A study of Mus musculus with 15 samples.

Results

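10 genes that mark dendritic cells, Flt3, Zbtb46, Xcr1, Clec9a, Cd209a, Batf3, Ccr7, Irf8, Fscn1 and Naaa, were taken by symbol from a deposited count table of 47729 features. Each symbol matched 1 feature, and each gene had at least 6 counts in each of the 15 columns of the table. The libraries were made by low-input Smart-Seq2, in which cDNA from a few cells is amplified by PCR, from F4/80+ CD64+ cells of the aorta. Those 2 surface proteins define macrophages, so the values below are RNA of dendritic cell markers in a macrophage sort, and no cell in it is called a dendritic cell here.

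All libraries came from mice whose genotype is labelled Apoe dko and written Apoe-/- in the protocol, which lack apolipoprotein E and develop atherosclerosis, and which had been on a high fat diet for 4 weeks. The libraries labelled Olfr2+, for the olfactory receptor used to divide the sort, comprised 10 columns from numbered samples 2, 3 and 4. The libraries labelled Olfr2- comprised 5 columns from numbered samples 1, 3 and 4. Each sort held 100 to 200 cells, and sorts were technical repeats from the pooled aortas of 4 female mice, and a p-value here speaks for the variation among these samples alone, which may be technical.

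Dendritic cells take up antigen, carry it to lymph nodes and present it to T cells. They arise from bone marrow precursors that need the growth factor receptor Flt3, and the transcription factor Zbtb46 separates conventional dendritic cells from most other myeloid cells. Conventional type 1 cells depend on Irf8 and Batf3 and carry Xcr1 and Clec9a, type 2 cells include those with Cd209a, and cells that mature toward migration switch on Ccr7 and Fscn1. In the atherosclerotic aorta such cells lie beside macrophages, with which they share many genes. Several of the markers are not private to them: Irf8 is also used by monocytes, macrophages and B cells, and Ccr7 by B and T cells.

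Whether reads of a marker could belong to a near copy was examined first, because Cd209a sits in a family of similar lectin genes and Clec9a overlaps a neighbour. In GENCODE transcripts of build GRCm38, 9 of the 10 coding sequences shared 0 of their 50-base windows with transcripts of another gene. The longest runs that Cd209a shared with a relative were 21 bases with Cd209e and 20 bases with Cd209d, shown here in capitals with 20 bases of each coding sequence on both sides.
Cd209a beside Cd209e: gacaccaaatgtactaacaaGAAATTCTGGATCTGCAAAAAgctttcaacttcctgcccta
Cd209e: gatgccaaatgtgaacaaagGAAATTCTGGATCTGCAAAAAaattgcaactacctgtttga
Cd209a beside Cd209d: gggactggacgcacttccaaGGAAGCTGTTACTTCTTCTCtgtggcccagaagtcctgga
Cd209d: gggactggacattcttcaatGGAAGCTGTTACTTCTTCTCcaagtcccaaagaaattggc
Clec9a was the exception, with 43 of 743 windows (5.79%) shared with Clec1b, a gene on the same strand whose exons it overlaps. The shared run is the first 92 bases of the Clec9a coding sequence, in capitals, followed by 20 bases that were not shared.
Clec9a: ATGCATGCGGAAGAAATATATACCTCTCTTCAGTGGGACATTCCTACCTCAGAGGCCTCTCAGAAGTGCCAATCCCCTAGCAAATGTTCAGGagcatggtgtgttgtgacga
Clec1b itself reached at most 0.502 CPM (counts per 1000000 counts of the column) in Olfr2+ columns and 1.40 CPM in Olfr2- columns, so where Clec9a was low the share of its reads from this region cannot be settled. Of the other 6 Cd209 genes, Cd209f reached 119 CPM and Cd209d 18.6 CPM in Olfr2+ columns, against 2.07 and 19.7 CPM in Olfr2- columns, and the rest stayed below 12 CPM.

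The columns fell into a deep set of 7, all labelled Olfr2+, with 76.0 to 95.6 M counts (M, 1000000), and a shallow set of 8 with 29.9 to 53.2 M. The shallow set held the Olfr2+ columns 3D, 4A and 4B and the 5 Olfr2- columns, so the label can be compared at like depth only there. The Olfr2 transcript went against the label, since Olfr2+ samples 2, 3 and 4 held 1, 9 and 8 of its counts, against 76, 34 and 35 for Olfr2- samples 1, 3 and 4. Groups are therefore named below as the libraries are labelled. The 2 genes that encode the sorted proteins were both read in every column: Adgre1 (F4/80) at 46.0 to 312 CPM in Olfr2+ columns and 9.48 to 235 CPM in Olfr2- columns, and Fcgr1 (CD64) at 0.544 to 103 CPM in Olfr2+ columns, against 4.18 to 19.95 CPM in Olfr2- ones.

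**Figure D1:**
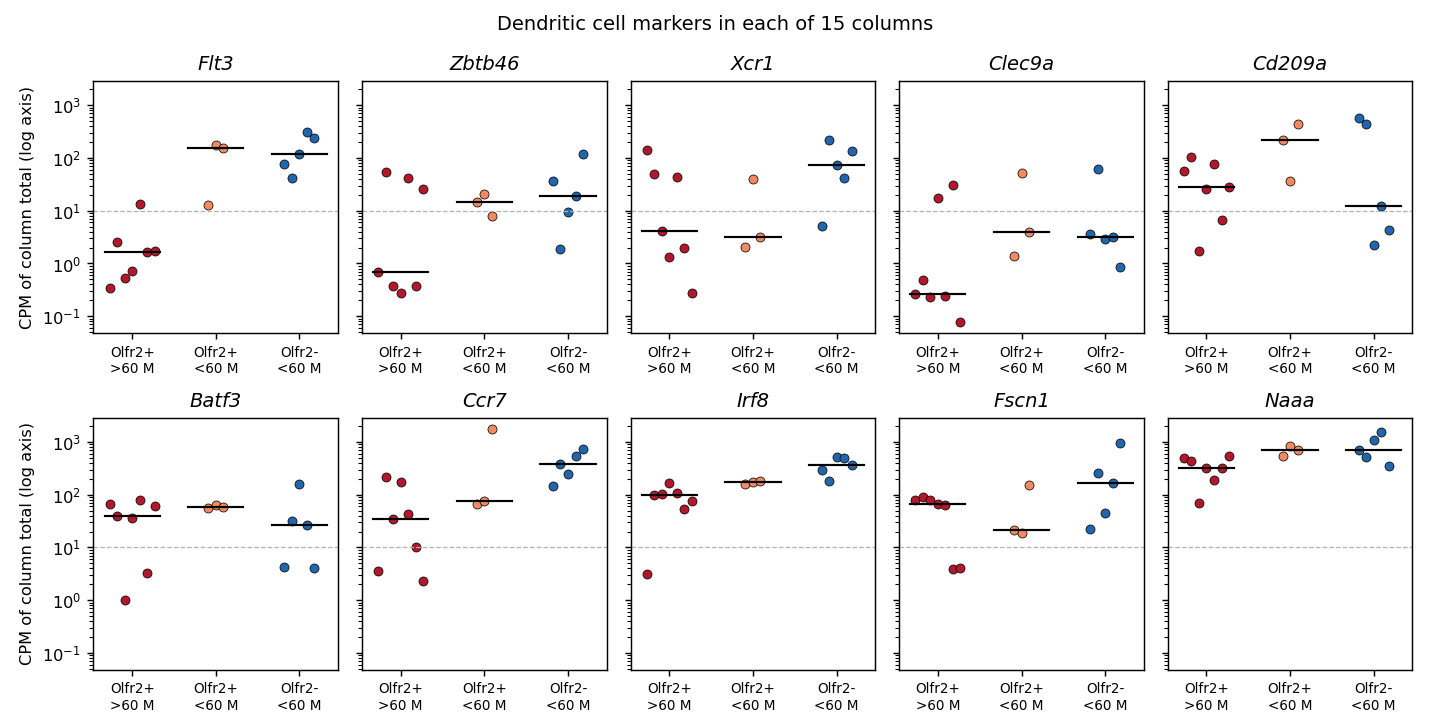
CPM of the column total (log axis) for each of the 10 markers. Each point is 1 column, the line is the median, the groups are Olfr2+ columns above 60 M counts, Olfr2+ columns below 60 M counts and Olfr2- columns, and the dashed line marks 10 CPM. Flt3 is at or below 13.2 CPM in the deep Olfr2+ columns and at 41.0 to 309 CPM in the Olfr2- columns, while Naaa is at 70.9 CPM or above throughout.

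Flt3, the receptor for the growth factor that dendritic cell precursors need, was low in every deep column. In the deep Olfr2+ columns it had 0.338 CPM at the lowest, 1.63 at the median and 13.2 at the highest. The shallow Olfr2+ columns 3D, 4A and 4B had 12.9, 175 and 157 CPM, and the Olfr2- columns 1A, 3A, 3B, 4A and 4B had 77.7, 41.0, 120, 309 and 244 CPM. The 7 deep Olfr2+ columns thus lay below all 5 Olfr2- columns, while 2 of the 3 shallow Olfr2+ columns lay within the Olfr2- range. The lowest value rested on 29 counts, with an exact Poisson interval of 0.226 to 0.485 CPM that covers counting error only.

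Zbtb46, the transcription factor of conventional dendritic cells, was high in some columns and nearly unread in others. It had 0.277 CPM at the lowest, 11.5 at the median and 55.0 at the highest of the Olfr2+ columns, against 37.4, 1.84, 9.55, 18.7 and 121 CPM in Olfr2- columns 1A, 3A, 3B, 4A and 4B. Both labels held columns above and below 10 CPM, 5 of 10 Olfr2+ columns and 3 of 5 Olfr2- columns being above, and the ranges overlapped. Within the deep set the columns 2B, 3A and 3C had 55.0, 41.3 and 25.3 CPM and the other 4 had less than 1 CPM.

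Xcr1, the receptor for the chemokine Xcl1 by which type 1 cells meet T cells, reached 10 CPM in 8 of the 15 columns, 5 of which also had at least 10 CPM of Zbtb46. The Olfr2+ columns had 0.276 CPM at the lowest, 3.71 at the median and 142 at the highest, and the Olfr2- columns 1A, 3A, 3B, 4A and 4B had 5.22, 215, 74.1, 42.5 and 139 CPM. Olfr2+ column 2A was the highest of its label for Xcr1 and yet had only 0.338 CPM of Flt3. 4 of 10 Olfr2+ columns and 4 of 5 Olfr2- columns were at 10 CPM or above, and the ranges overlapped.

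Clec9a, a receptor for the actin of dead cells that type 1 cells use to sample them, was the lowest marker. The Olfr2+ columns had 0.079 CPM at the lowest, 0.920 at the median and 51.7 at the highest, and 3.67, 62.5, 2.89, 3.20 and 0.873 CPM were found in Olfr2- columns 1A, 3A, 3B, 4A and 4B. It reached 10 CPM in 3 of 10 Olfr2+ columns (2D, 3B and 4A) and in 1 of 5 Olfr2- columns (3A), and the labels overlapped. Columns 2D and 3B had 17.3 and 30.9 CPM of Clec9a with 1.35 and 1.93 CPM of Xcr1, so the 2 surface markers of type 1 cells were not high in the same deep columns, whereas column 4A and Olfr2- column 3A had more than 10 CPM of both.

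Batf3, a transcription factor that type 1 cells require, was even across the shallow Olfr2+ columns 3D, 4A and 4B, at 56.6, 63.2 and 59.6 CPM. The deep Olfr2+ columns had 0.988 CPM at the lowest, 38.8 at the median and 79.4 at the highest. The Olfr2- columns 1A, 3A, 3B, 4A and 4B had 4.17, 31.5, 156, 26.4 and 4.12 CPM. Olfr2- columns 1A, 3A, 4A and 4B lay below the shallow Olfr2+ columns and 3B lay above them, and the ranges of the labels overlapped.

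Irf8, the transcription factor on which type 1 and plasmacytoid cells depend and which monocytes and B cells also use, was the only marker whose columns did not overlap between the labels. Olfr2+ columns ran from 3.15 CPM through a median of 106 to 181, and Olfr2- columns 1A, 3A, 3B, 4A and 4B had 297, 184, 525, 488 and 372 CPM. All 10 Olfr2+ columns were thus lower than all 5 Olfr2- columns, as was the case for 1.78% of the 24362 genes tested, and the gap was narrow, with the highest Olfr2+ column at 181 CPM and the lowest Olfr2- column at 184 CPM. These levels are scaled to the column total, and the fitted comparison given below uses other scaling.

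Naaa, a lysosomal amidase that degrades lipid amides and is enriched in type 1 cells, was in most columns the highest marker, and its highest column was 21.8 times its lowest, the smallest such ratio of the 10. It had 70.9 CPM at the lowest, 458 at the median and 838 at the highest of the Olfr2+ columns, against 705, 525, 1095, 1545 and 356 CPM in Olfr2- columns 1A, 3A, 3B, 4A and 4B. It led the 10 markers in 12 of the 15 columns, the exceptions being Olfr2+ 2C (Irf8), Olfr2+ 4B (Ccr7) and Olfr2- 4B (Fscn1). The labels overlapped.

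Cd209a, a lectin related to DC-SIGN that marks a monocyte-like kind of type 2 cell, showed the widest spread of the markers among the Olfr2- columns. The Olfr2+ columns had 1.70 CPM at the lowest, 46.1 at the median and 448 at the highest, and the Olfr2- columns 1A, 3A, 3B, 4A and 4B had 576, 437, 2.23, 12.5 and 4.27 CPM. Olfr2- columns 1A and 3A were therefore high and the other 3 low, and columns 3A and 3B, which carry the same sample number, stood far apart. The labels overlapped.

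Ccr7, the chemokine receptor that guides mature dendritic cells into lymphatic vessels, was highest in a single Olfr2+ column. Column 4B had 1751 CPM, while the Olfr2+ columns as a whole had 2.32 CPM at the lowest and 55.9 at the median. The Olfr2- columns 1A, 3A, 3B, 4A and 4B had 147, 375, 251, 538 and 733 CPM. Apart from Olfr2+ columns 4B, 2B and 2D, at 1751, 214 and 172 CPM, the Olfr2+ columns lay below the Olfr2- range.

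Fscn1, which encodes fascin, the actin bundler of dendrites in mature cells, overlapped between the labels. The Olfr2+ columns had 3.92 CPM at the lowest, 66.4 at the median and 151 at the highest, against 22.0, 262, 45.1, 164 and 979 CPM in Olfr2- columns 1A, 3A, 3B, 4A and 4B. Among the deep Olfr2+ columns 5 lay between 65.1 and 88.9 CPM and 3B and 3C lay at 3.92 and 4.13 CPM. Olfr2- column 4B was the highest of the 15 for Fscn1 and also for Zbtb46.

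Because longer transcripts give more counts, levels of different genes were compared per kilobase of exon (CPM per kb). Among Olfr2+ columns the median level was 123 CPM per kb for Naaa, followed by Batf3 at 36.4, Cd209a at 29.1, Ccr7 at 28.3, Fscn1 at 22.0 and Irf8 at 14.96, with Zbtb46 at 1.35, Xcr1 at 0.832, Flt3 at 0.344 and Clec9a at 0.279 CPM per kb. Among Olfr2- columns Ccr7 and Naaa stood level at 190 and 189 CPM per kb, ahead of Fscn1 at 54.5, Irf8 at 52.8, Flt3 at 19.4, Xcr1 at 16.6, Batf3 at 16.5, Cd209a at 7.91, Zbtb46 at 2.20 and Clec9a at 0.973. Clec9a was last in both orders. In each order all 9 pairs of neighbours overlapped over the columns, so no neighbouring ranks were separated beyond their spread.

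Columns of 1 sample also differed widely. Each column has its own library name in the labels, but 7 pairs share a further name there, and 1 of these pairs, Olfr2+ 3C and 3D, spans the depth sets. What that name stands for is not stated. Within a pair the higher over the lower CPM had a median of 1.72 for Naaa and 1.95 for Irf8. That median ratio was 2.92 for Flt3, 3.26 for Xcr1, 4.90 for Ccr7, 4.97 for Batf3, 5.19 for Zbtb46, 5.83 for Fscn1, 11.5 for Cd209a and 17.2 for Clec9a. The largest ratio was 196, for Cd209a between Olfr2- 3A and 3B, followed by 126 for Clec9a between Olfr2+ 3A and 3B at 0.245 and 30.9 CPM. The SD of log2(CPM + 1) over columns had a median of 2.17 over the 10 markers in Olfr2+ columns and 1.97 in Olfr2- columns, beside medians of 2.02 and 1.31 over 8746 genes that averaged at least 10 CPM. In a bulk library fewer cells of a type and less RNA per cell cannot be told apart.

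To compare the labels, counts were summed within each numbered sample and fitted with edgeR's quasi-likelihood F test over all 24362 genes that passed its expression filter, with TMM scaling, and p-values were adjusted by the Benjamini-Hochberg method. All 10 markers passed the filter. 0 of 10 were called at an adjusted p under 0.05, where 1.58% of all genes were called (1.12% higher and 0.46% lower in Olfr2+) and the unadjusted p was under 0.05 for 7821 genes. Among the markers the median log2 fold change, Olfr2+ over Olfr2-, was -0.04, with 5 of 10 positive, and that of all genes was 0.24. DESeq2, which called 23.4% of its 28701 genes, called 0 of the 8 markers to which it gave an adjusted p, Flt3 and Clec9a having none.

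**Figure D2:**
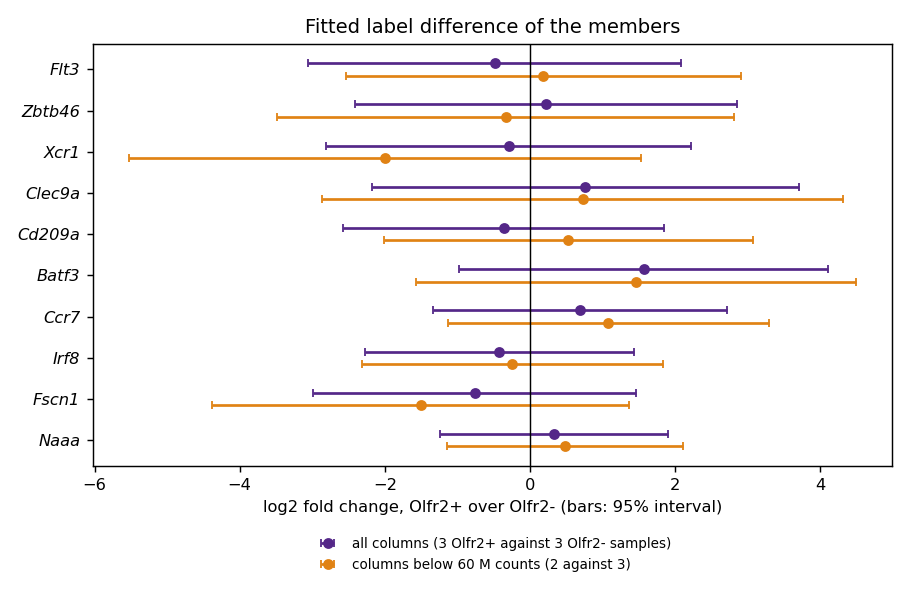
Fitted log2 fold change, Olfr2+ over Olfr2-, of each marker with its 95% interval (bars), from all columns (purple, 3 samples against 3) and from the columns below 60 M counts (orange, 2 samples against 3). Every interval spans 0, and the estimates from all columns run from -0.76 for Fscn1 to 1.57 for Batf3.

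Batf3 had the largest estimate, and it was the only marker whose summed samples did not overlap. Its scaled level was 72.3, 70.6 and 71.0 CPM in Olfr2+ samples 2, 3 and 4 and 2.52, 58.6 and 11.1 CPM in Olfr2- samples 1, 3 and 4, and 13.5% of all genes tested were likewise separated with Olfr2+ higher. The 3 Olfr2+ samples agreed closely and the 3 Olfr2- samples were spread widely. The log2 fold change was 1.57 (SE 1.24, 95% interval -0.97 to 4.11, edgeR adjusted p = 0.347). Its size depended on single samples and on scaling, at 3.54 without Olfr2- sample 3, 0.86 without Olfr2- column 3A, 0.91 without Olfr2- sample 1, 0.56 with totals-only scaling and 0.38 with a filter at 10 CPM. For Irf8, whose columns were separated, it was -0.42 (SE 0.90, interval -2.27 to 1.43, edgeR adjusted p = 0.741), with 175 ± 40.9 CPM in Olfr2+ and 234 ± 54.7 CPM in Olfr2- samples (SD, n = 3 each), and -1.54 (edgeR adjusted p = 0.225) with totals-only scaling.

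The other estimates were smaller or less precise. On the log2 scale Fscn1 differed by -0.76 (SE 1.08, edgeR adjusted p = 0.604), Ccr7 0.69 (SE 0.99, edgeR adjusted p = 0.607) and Clec9a 0.76 (SE 1.44, edgeR adjusted p = 0.702). The Ccr7 value rested on column 4B, since without it the log2 fold change was -1.34. Flt3 had -0.48 (SE 1.25, edgeR adjusted p = 0.787), Cd209a -0.36 (SE 1.08, edgeR adjusted p = 0.817), Naaa 0.33 (SE 0.77, edgeR adjusted p = 0.759), Xcr1 -0.29 (SE 1.23, edgeR adjusted p = 0.869) and Zbtb46 0.22 (SE 1.29, edgeR adjusted p = 0.906). The narrowest interval, that of Naaa, ran from -1.24 to 1.91, so differences of severalfold in either direction lay within what these samples allow.

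At like depth the comparison was 2 Olfr2+ samples (column 3D, and 4A with 4B) against 3 Olfr2- samples. Of 29989 genes tested 0 were called, a background of 0%, with 3127 at an unadjusted p under 0.05. 0 of 10 markers were called, their median log2 fold change being 0.33 against -0.43 for all genes. Batf3 had 1.46 (SE 1.44, edgeR adjusted p = 0.731), beside 1.57 over all columns. Xcr1 and Fscn1 were the lowest, at -1.99 (SE 1.68, edgeR adjusted p = 0.680) and -1.51 (SE 1.36, edgeR adjusted p = 0.705), and Flt3 had 0.19, so its sign turned. Over all 33 fits made, 0 called a marker. The smallest adjusted p was 0.0674, for Flt3 when Olfr2+ sample 4 was left out, with a log2 fold change of -4.05.

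**Figure D3:**
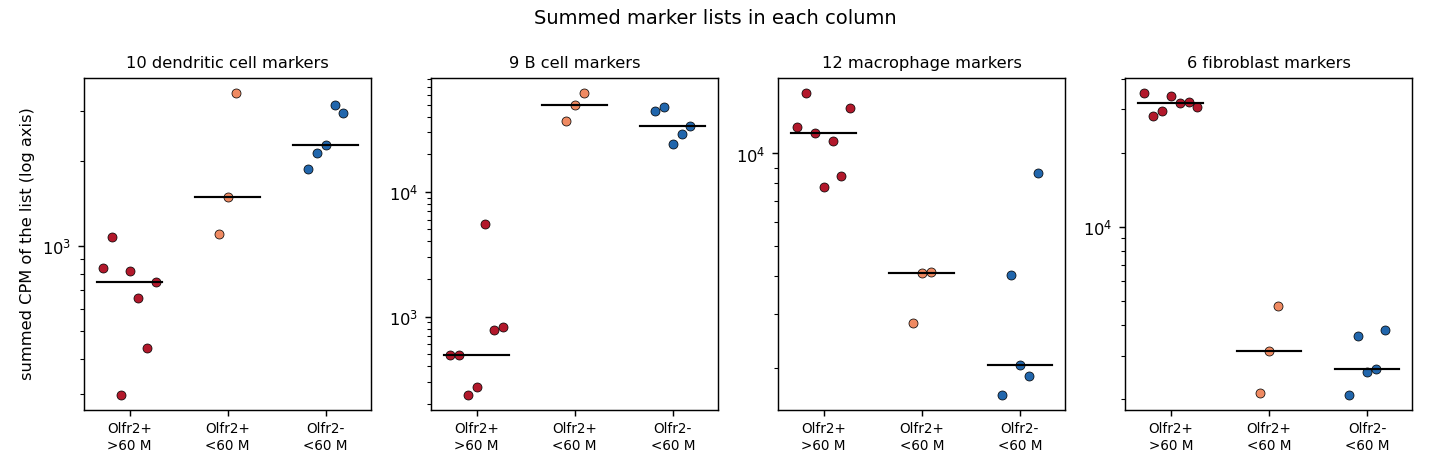
Summed CPM (log axis) of the 10 dendritic cell markers, 9 B cell markers, 12 macrophage markers and 6 fibroblast markers. Each point is 1 column and the line the median of Olfr2+ columns above 60 M counts, Olfr2+ columns below 60 M counts and Olfr2- columns. The dendritic cell markers sum to 299 to 1079 CPM in the deep Olfr2+ columns and to 1102 CPM or more in all others.

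In CPM of the column total the sum of the markers followed the depth set, with a narrow gap between 1079 and 1102 CPM. Together they took 299 to 1079 CPM in the 7 deep Olfr2+ columns, 1102, 1491 and 3459 CPM in Olfr2+ columns 3D, 4A and 4B, and 1874 to 3147 CPM in the 5 Olfr2- columns, so the deep columns lay below all others. Markers of other cells moved with the set too. The 9 B cell markers summed to 236 to 5555 CPM in the deep Olfr2+ columns, 37103 to 61640 CPM in the shallow Olfr2+ columns and 24217 to 48006 CPM in the Olfr2- columns, most of it from the antibody genes Igkc, Ighm and Jchain. The part of these cells in the levels of Irf8 and Ccr7, which B cells also express, was not tested.

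The 12 macrophage and 6 fibroblast markers went the other way. Macrophage markers summed to 7792 to 15675 CPM in the deep Olfr2+ columns, 2817 to 4119 CPM in the shallow Olfr2+ columns and 1642 to 8628 CPM in the Olfr2- columns. Fibroblast markers summed to 28230 to 34773 CPM in the deep Olfr2+, 2114 to 4770 CPM in the shallow Olfr2+ and 2082 to 3808 CPM in the Olfr2- columns. The 11 T and NK cell markers summed to 1.57 to 102 CPM in the deep Olfr2+, 19.0 to 228 CPM in the shallow Olfr2+ and 53.4 to 325 CPM in the Olfr2- columns, and their part in the level of Ccr7 was not tested. Protein-coding genes took 94.6 to 97.5% of counts in the deep Olfr2+ columns, 78.5 to 80.4% in the shallow Olfr2+ ones and 79.5 to 85.6% in those labelled Olfr2-.

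For a model with label and depth set, columns were summed by numbered sample and depth set. Olfr2+ sample 2 was then a deep unit, sample 4 a shallow unit, and sample 3 gave both a deep and a shallow unit. These units of sample 3 were treated as independent, and all Olfr2- units were shallow. In this model the depth set was called for 0.448% of 25659 genes and for 0 of the 10 markers. In this TMM-scaled model the markers had a median log2 fold change, deep over shallow, of -0.10, with 4 of 10 positive, against -0.38 for all genes. The lower sum in the deep columns was thus not seen as a shared shift of the markers after this scaling. Flt3 had the largest estimate, a log2 fold change of -4.00 of the deep over the shallow set (SE 1.55, unadjusted p = 0.0205, edgeR adjusted p = 0.0898). Its 7 deep columns lay below Olfr2+ columns 4A and 4B. Sample 3 alone has both depths, and its shallow column 3D had 12.9 CPM of Flt3. Its deep column 3A stood level at 13.2 CPM, while deep columns 3B and 3C were lower, at 1.63 and 1.70 CPM. Xcr1 had 2.15 (SE 1.63, edgeR adjusted p = 0.316), Ccr7 -1.92 (SE 1.23, edgeR adjusted p = 0.238) and Cd209a -1.47 (SE 1.29, edgeR adjusted p = 0.383). Among the Olfr2+ columns alone Flt3 had -4.14 (SE 1.60, edgeR adjusted p = 0.0935). The Flt3 and Ccr7 estimates rested on Olfr2+ sample 4. Without it Flt3 was at -1.51 and Ccr7 turned to 0.58. Xcr1 was then at 4.61, Clec9a at 2.89, Fscn1 at 1.91 and Cd209a at -1.81, all larger in size than that of Flt3. Other samples mattered too, with Xcr1 at 0.51 without Olfr2+ sample 2 and Flt3 at -6.63 without Olfr2+ sample 3. In the same model 2 of 9 B cell markers, Igkc and Jchain, were lower and 4 of 6 fibroblast markers higher in the deep set.

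**Figure D4:**
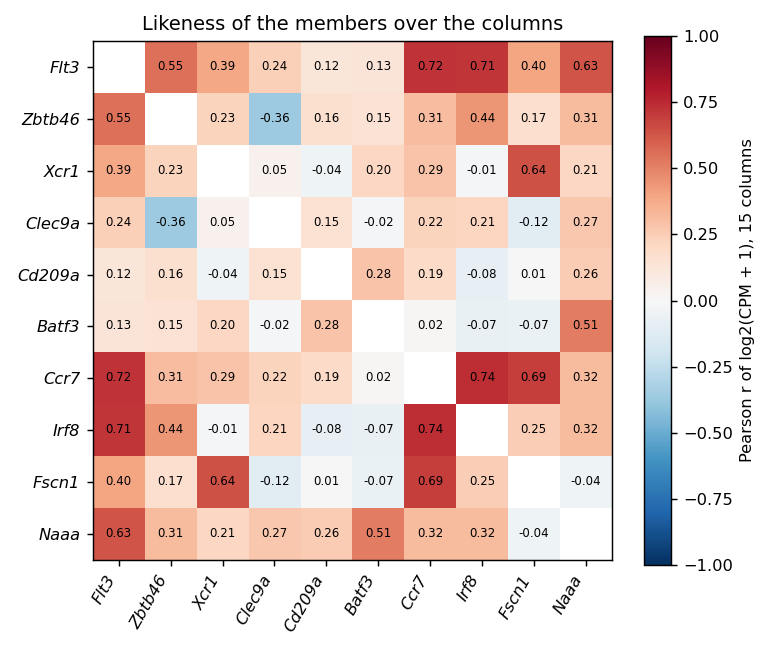
Pearson correlation of log2(CPM + 1) over the 15 columns for each pair of the 10 markers, given as colour and number. Flt3, Ccr7 and Irf8 form the warmest block, at 0.71 to 0.74, and the type 1 markers Xcr1 and Clec9a are at 0.05.

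The markers did not rise and fall as 1 block. Over the 15 columns, which share samples, depth sets and PCR, the 45 pairs had a median Pearson r of 0.223 and ran from -0.364 (Zbtb46 with Clec9a) to 0.736 (Ccr7 with Irf8). 8 pairs exceeded 0.5, among them Flt3 with Ccr7 at 0.723, Flt3 with Irf8 at 0.713 and Ccr7 with Fscn1 at 0.691, the pair of mature cell markers. Among the 5 type 1 genes (Xcr1, Clec9a, Batf3, Irf8 and Naaa) the 10 pairs had a median r of 0.207. They ran from -0.072 (Batf3 with Irf8) to 0.509 (Batf3 with Naaa), and Xcr1 with Clec9a had 0.0466. The column medians of 8 of the 10 markers, all but Batf3 and Cd209a, were lower in Olfr2+ than in Olfr2- columns, and the part of label and depth set in these values was not tested.

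The genes most like each marker over the 15 columns, among 8746 that averaged at least 10 CPM, did not include another of the 10 markers, though Traf1 is on the list of mature dendritic cell genes described below. Flt3 was most like Basp1 (r = 0.955) and Cox7c (0.949), and Naaa most like Etv6 (0.938) and Dnase2a (0.911). Dcaf15 (0.867) was among the genes most like Batf3, and Irf8 was followed by Traf1 (0.876) and Lcp1 (0.866). For Zbtb46 the nearest were Sf3a2 (0.85) and Myo7a (0.844), for Ccr7 Treml4 (0.848) and Gpr35 (0.84), and for Cd209a Cmpk1 (0.829) and Mink1 (0.827). Clec9a had Whsc1 (0.827) and Bub1b (0.777), Fscn1 had Birc6 (0.806) and Tmem30a (0.793), and Xcr1 had Ppp2r3d (0.785) and Tmem71 (0.771), the lowest of the 10. These values describe these columns only.

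Of 51 other dendritic cell genes, 49 passed the filter and 1 was called, against 1.58% of all genes. The gene was Mgl2, a galactose-binding lectin of type 2 cells and of some macrophages. It had 7 deep Olfr2+ columns from 66.5 to 356 CPM, shallow Olfr2+ columns 3D, 4A and 4B at 171, 15.4 and 604 CPM, and Olfr2- columns from 7.36 to 28.9 CPM. Olfr2+ column 4A alone fell within the Olfr2- range. Summed and scaled, Mgl2 had 349 ± 101 CPM in Olfr2+ and 11.9 ± 1.66 CPM in Olfr2- samples (SD, n = 3 each), the log2 fold change being 4.88 (SE 1.08, edgeR adjusted p = 0.0351). At like depth the log2 fold change was 4.48 (edgeR adjusted p = 0.411) and with totals-only scaling 3.70 (edgeR adjusted p = 0.0544), both above the threshold. In all, 6 of 12 other settings and 9 of 20 omissions of a sample or column ended the call, with the log2 fold change at 3.32 or more in each.

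**Figure D5:**
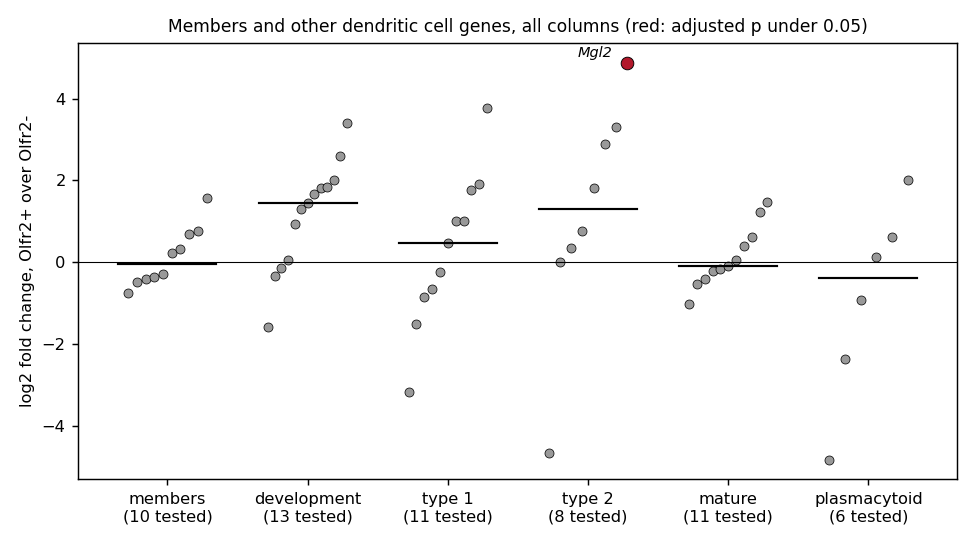
Log2 fold change, Olfr2+ over Olfr2-, of the 10 markers and of 5 lists of other dendritic cell genes, from all columns. Each point is 1 gene, the line is the median of the list and red marks an adjusted p under 0.05, which Mgl2 alone passed.

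Of 13 dendritic cell development genes 0 were called, with 10 positive and a median log2 fold change of 1.44. The highest, by mean level, included Klf4, a transcription factor also of monocytes and macrophages, at 1.82 (SE 0.76, edgeR adjusted p = 0.117), Id2, which type 1 cells need, at 0.05 (SE 0.79, edgeR adjusted p = 0.969), and Zeb2, a factor of type 2 and plasmacytoid cells, at -0.14 (SE 0.80, edgeR adjusted p = 0.907). Of the 11 other type 1 genes 0 were called, with 6 positive and a median of 0.47. Their log2 fold changes ran from -3.17 to 3.77. The intracellular trafficking gene Rab7b had 0.47 (SE 0.90, edgeR adjusted p = 0.708) and the lysosomal thioesterase Ppt1 1.92 (SE 0.99, edgeR adjusted p = 0.172). Wdfy4, the next by mean level, had a higher mean in Olfr2- samples, at 98.7 ± 87.5 CPM in Olfr2+ and 283 ± 408 CPM in Olfr2- samples (SD, n = 3 each). That mean rested on Olfr2- sample 1 at 753 CPM, with samples 3 and 4 at 87.3 and 10.2 CPM. Olfr2+ samples 2, 3 and 4 had 200, 44.8 and 51.7 CPM.

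Of 8 type 2 genes tested 6 were positive, with a median of 1.29 and a range of -4.67 to 4.88, and Mgl2 was the 1 called. Sirpa, the inhibitory receptor for CD47 that macrophages also carry, had 2.89 (SE 0.95, edgeR adjusted p = 0.0786). Of 11 genes of mature cells 0 were called, with 5 positive, a median of -0.08 and a range of -1.02 to 1.48. Cd83, an activation marker, had the highest of these, 1.48 (SE 0.79, edgeR adjusted p = 0.184). Traf1, the next by mean level, had 192 ± 72.1 CPM in Olfr2+ and 203 ± 178 CPM in Olfr2- samples (SD, n = 3 each). Of 6 plasmacytoid genes tested 0 were called, with a median of -0.40 and a range of -4.82 to 2.02. Tcf4, their lineage factor, had 0.61 (SE 0.86, edgeR adjusted p = 0.598). Siglech, a surface marker of these cells named after its values were seen, stayed at or below 0.904 CPM in Olfr2+ columns and 6.76 CPM in Olfr2- columns. Cox6a2 had 0 counts in each of the 10 Olfr2+ columns and at most 0.131 CPM in Olfr2- columns. Scaled to library totals alone, the median of all genes moved to -0.88 and that of the 10 markers to -1.16, with 1 of 10 positive.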

How the data were processed

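The authors deposited 1 table of raw, unnormalized gene counts with 15 columns. Tools given in the submitters' processing notes are DRAGEN, STAR 2.7.1 and DESeq2 1.34, with GRCm39 as the build and no role for any of them. The strand setting and the gene models behind the table are not given, so no coordinates are printed. The members and lists were chosen with earlier results of these data known.

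The number in each title was read as a sample and its letter as marking repeats, a reading that the labels do not state, and counts were summed by number (3 samples per label). In the fits with the depth set they were summed by number and depth set, so Olfr2+ sample 3 gave a deep and a shallow unit. No pair of columns agreed within sampling noise (chi-square of at least 573 per degree of freedom). Fits were made in R 4.3.3 with edgeR 4.0.16, using its expression filter by group, TMM scaling and Benjamini-Hochberg adjustment at 0.05, and the script was tested on simulated data. SEs come from the F statistic. DESeq2 1.42.0, limma-voom (limma 3.58.1), other scalings, filters, units, a block and omissions were alternatives. Omissions of columns, 1 filter and the settings of the depth term were added after seeing the data. Levels are CPM of the column total, or TMM-scaled CPM where samples are summed. Lengths and sequences came from GENCODE transcripts of GRCm38, in which 98.9% of gene identifiers were found without version. Smart-Seq2 carries no molecular identifiers, so the Poisson intervals of single columns cover the counting error of reads only. The intervals of fitted fold changes were formed from the SEs of the fits, which also take in variation among the summed samples. Sirpa, the highest type 2 gene by mean CPM, was named in addition to Mgl2. Other named genes are the 10 markers, list genes that passed, otherwise up to 3 of each list by mean CPM, and the 2 genes most like each marker. For 1 marker, 1 of these 2 genes is not reported here.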

Additional observations from a re-analysis of the deposited data

Results flagged for a closer look

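The columns of each marker were examined within each label for 1 value far from the rest, by the gap to the nearest value over the whole range. 6 of the 20 groups so examined met the limit, which chance passes in about 1 group of 20 where values are normally distributed. The scale was unlogged CPM of the column total, on which every marker spanned 21.8-fold or more over the 15 columns. The rate for such values was not tested, so the 6 cannot be read against it.

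Xcr1 in Olfr2+ column 2A was at 142.1 CPM, with the next column at 49.94. Cd209a in Olfr2+ column 4B was at 447.9 CPM, with the next at 222.1. Ccr7 in the same column was at 1751 CPM, with the next at 213.9. Clec9a in Olfr2- column 3A was at 62.53 CPM, with the next at 3.674. Batf3 in Olfr2- column 3B was at 156.4 CPM, with the next at 31.47. Fscn1 in Olfr2- column 4B was at 978.8 CPM, with the next at 262.5. All 6 were the highest of their group, and the cause was not tested.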

How the results depend on the processing

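0 of the 10 markers were called under any of the 32 alternatives, while the count of all genes called moved widely. Higher and lower genes numbered 86 and 310 with library totals, 642 and 239 with no low-count filter, 0 and 0 with a filter at 10 CPM, 526 and 3 when that filter kept the scaling, 4017 and 2690 with DESeq2, and 0 and 0 with limma-voom, with columns below 60 M counts and with the depth set as a covariate. They numbered 649 and 244 with columns as units and 885 and 683 with the shared description names as units. Of 20 omissions of a sample or column, 13 cut the number of higher genes by more than 1.5 times and 4 raised it by more than that. They gave 0 to 1026 higher and 0 to 488 lower genes, with 0 called without Olfr2+ column 2D or 4B, 1026 and 286 without Olfr2+ 3D, and 806 and 488 without Olfr2- 3A.

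The number of other dendritic cell genes called, 1, was 0 with totals, the 10 CPM filter, limma-voom, the block, the shallow columns and the covariate. It was 7 with DESeq2 (4 higher and 3 lower, of 46 with an adjusted p), which called 23.4% of all genes. It was 4 with columns as units and 2 with those names, where 649 and 244 of 20411 genes and 885 and 683 of 26043 genes were higher and lower. Omissions gave 0 to 3. Deviations of same-numbered samples from the mean of their label had correlations of 0.012 for number 3 and -0.049 for number 4. The Olfr2+ samples differ in depth set and the Olfr2- samples do not. These values therefore cannot decide whether equal numbers pair the samples. The block on the numbers left 2 higher and 0 lower genes.

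Batf3, Irf8 and, apart from omissions, Fscn1 kept their direction, but not their size: Batf3 ran from 0.38 with the 10 CPM filter to 2.46 with limma-voom, and from 0.86 to 3.54 under omissions. The signs of the others turned as follows, on the log2 scale. Flt3 was 0.19 in the shallow columns and 0.15 with the covariate. Zbtb46 was -1.02 with totals, -1.49 with the 10 CPM filter, -0.56 with columns as units, -0.33 in the shallow columns and -0.43 with the covariate. Xcr1 was 0.25 with limma-voom. Clec9a was -0.066 with totals, -0.19 with the filter and -0.11 with columns as units. Cd209a was 0.85 with limma-voom, 2.08 with the block, 0.53 in the shallow columns and 0.39 with the covariate. Ccr7 was -0.21 with totals, -0.35 with the filter, -0.54 with limma-voom, -0.21 with columns as units and -0.78 with the block. Naaa was -0.75 with totals, -1.09 with the filter and -0.054 with columns as units. For the depth set, Zbtb46 was -0.058, Batf3 -0.87 and Fscn1 -0.16 with the filter, and Batf3 -0.50 with totals.

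Under omission of a sample or column, the log2 fold changes that turned sign ran from -4.05 to 0.54 for Flt3, -0.54 to 1.02 for Zbtb46, -1.44 to 0.89 for Xcr1, -0.73 to 3.54 for Clec9a, -1.48 to 0.56 for Cd209a, -1.34 to 1.84 for Ccr7, -1.58 to 0.26 for Fscn1 and -0.15 to 0.72 for Naaa. Those of the depth set ran from -2.09 to 2.90 for Clec9a, -0.16 to 0.43 for Batf3, -4.29 to 0.58 for Ccr7, -0.82 to 0.0066 for Irf8 and -0.71 to 1.91 for Fscn1. The cause was not tested. Each marker had at least 6 counts in every column. Counting error was widest, relative to the value, for Clec9a in Olfr2+ column 3C (0.079 CPM, 95% Poisson interval 0.029 to 0.172). The lowest column of each marker was a deep Olfr2+ column.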

Other observations

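Monocyte markers, which describe the blood precursors of many aortic macrophages, also had different sums by depth set within the libraries labelled Olfr2+, though with label and depth set in 1 model 0 of 8 were called for the depth set (smallest edgeR adjusted p = 0.0767). The 8 genes summed to 695 to 1396 CPM in the deep Olfr2+ columns, 3588 to 3914 CPM in the shallow Olfr2+ columns and 2455 to 3185 CPM in the Olfr2- columns. Over all columns 0 of 8 were called, with 7 positive and a median log2 fold change of 0.81, and at like depth 0 of 8 were called, with 8 positive and a median of 1.48. The 5 neutrophil markers summed to 133 to 447 CPM in the deep Olfr2+, 635 to 684 CPM in the shallow Olfr2+ and 180 to 723 CPM in the Olfr2- columns, and 0 of the 4 tested were called. Endothelial and smooth muscle markers were also called 0 times over all columns. The 5 endothelial genes summed to 1.09 to 738 CPM in the deep Olfr2+, 11.7 to 52.6 CPM in the shallow Olfr2+ and 31.5 to 212 CPM in the Olfr2- columns, and the 4 smooth muscle genes to 0.492 to 95.5, 1.46 to 1.80 and 1.41 to 9.58 CPM in the deep Olfr2+, shallow Olfr2+ and Olfr2- columns. Over all columns 4 of 12 macrophage markers and 6 of 6 fibroblast markers were called higher in Olfr2+, beside 1.12% of all genes. The deep columns are all labelled Olfr2+, so label and depth are mixed in these calls. At like depth 0 of 12 and 0 of 6 were called, as were 0 of 29989 genes. The median log2 fold change was then 0.80 for macrophage markers (2.82 over all columns) and 0.81 for fibroblast markers (4.45 over all columns). Over all columns 0 of 9 B cell and 0 of 10 tested T and NK cell markers were called.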
